A study of Mus musculus with 12 samples.

Results

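Histone modifying enzymes are the proteins that add or remove acetyl and methyl groups on the tails of histones, and their transcripts were followed here in mouse granulosa cells through the first hours of ovulation. They were chosen by name. A gene was a member if its symbol began with Kdm, Kmt, Kat, Hdac, Sirt, Setd or Suv39h, or was Ezh1, Ezh2, Ehmt1, Ehmt2, Nsd1, Nsd2, Nsd3, Dot1l, Crebbp or Ep300. This gave 73 of the 18194 genes measured by a probe set with a single gene symbol. The 73 genes had 184 probe sets, and the brightest probe set of a gene, by its mean of 12 arrays, stood for that gene. Granulosa cells line the ovarian follicle around the oocyte, and the RNA on an array came from the cells of 5 mice, released by puncturing follicles and combined.

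There were 4 groups of 3 arrays, all from immature females of 24 to 26 days that had been given 5 IU of pregnant mare serum gonadotropin (PMSG) 48 h before, which drives follicle growth. Ex6DEL 4 h mice lacked exon 6 of Snf2l and were collected 4 h after a dose of 5 IU of hCG (human chorionic gonadotropin), a ligand of the luteinizing hormone receptor that starts ovulation. Ex6DEL 0 h mice had the same deletion and no hCG. WT 4 h mice were wild-type littermates collected 4 h after hCG, and WT 0 h mice were wild-type littermates without hCG. Snf2l (Smarca1) encodes an ATPase that moves nucleosomes, as part of the ISWI chromatin remodellers. The deletion was made with a loxP-flanked exon in 129Sv mice crossed to a Gata-1 Cre line in CD-1. It was then carried in the germline without Cre on 129SV, so all cells of the mouse have it. Whether the 3 arrays within a group stand for separate pools is not stated in the labels, and p-values then measure only the spread between these arrays, which may be technical.

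Acetylation of histone tails by acetyltransferases loosens chromatin and accompanies transcription, and deacetylases, among them the NAD-dependent sirtuins, reverse it. Lysine methylation is read by its position. Methylation of lysine 4 of histone H3 (H3K4) marks active promoters and enhancers, H3K36 and H3K79 methylation marks transcribed genes, and H3K9, H3K27 and H4K20 methylation goes with silent or compact chromatin. Lysine demethylases of a flavin family and of the JmjC family remove these marks. Granulosa cells turn over a large part of their transcription after the ovulatory surge.

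The arrays were checked first. Values are log2 intensities after GCRMA, with a floor of 2.21, and a difference of 1 is a doubling. Smarca1 measured 12.19, 11.05 and 10.72 in Ex6DEL 4 h, 10.96, 10.61 and 10.70 in Ex6DEL 0 h, 12.32, 10.96 and 10.80 in WT 4 h, and 10.31, 11.10 and 10.75 in WT 0 h arrays. Its level did not separate the genotypes (Ex6DEL minus WT 0.04 at 0 h and -0.04 at 4 h, adjusted p 1 in limma for both), and where its probes lie relative to exon 6 is not known here, so it does not check the labels. Of 10 granulosa markers 9 were measured, and their mean per array was 10.35 to 10.67 in Ex6DEL 4 h, 12.40 to 13.21 in Ex6DEL 0 h, 10.75 to 11.68 in WT 4 h and 11.81 to 12.61 in WT 0 h, with Amh at the floor. A pair of arrays stood apart. Ex6DEL 0 h replicate 3 had a mean of 9.27 over 12 hCG-induced ovulatory genes such as Ereg and Ptgs2, against 4.29 and 3.72 in the other arrays of its group, 11.51 to 12.72 in Ex6DEL 4 h, 11.27 to 12.86 in WT 4 h and 3.81 to 5.05 in WT 0 h. Not all of these genes were raised in it. Snap25 was 2.41 in that array and 9.87, 8.46 and 8.94 in Ex6DEL 4 h, and Lepr was 3.17 in that array and 9.94, 8.67 and 9.71 in Ex6DEL 4 h. Ex6DEL 0 h replicate 1 had a mean of 11.94 over 8 theca and stroma markers, against 7.28 to 9.07 in all other arrays. It also had the highest mean of 9 oocyte markers, 9.45, against 7.26 to 8.70 elsewhere. In such pooled cells, fewer cells of a type and less RNA per cell cannot be told apart.

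Most of these enzymes lay above background, taken in this paragraph as the median probe set of the array. Of the 73, 69 lay above the median probe set of the array on all 12 arrays and 65 lay above the median gene, at 4.74. The median probe set lay only at 2.75 to 2.91, near the floor, and Hdac8 passed it at 2.92 to 3.22. Hdac8 had the same value, 3.22, on every array but WT 4 h replicate 1. Passing the median thus does not show a signal above the background of a given probe set. Kdm4d, a lysine 9 demethylase known for its testis expression, and Kdm5d, which lies on the Y chromosome, were below the array median on all 12 arrays, at 2.21 to 2.78 and 2.21 to 2.31. Hdac9 and Hdac10 were below it on some arrays. Kdm5d at the floor in females is a simple check on the lower end of the scale.

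Both genotypes together give the most precise view of what hCG did, 6 arrays at 4 h against 6 at 0 h. In this mean response of Ex6DEL and WT, 7 of the 73 enzymes passed limma's test at an adjusted p under 0.05, which is 9.59%, and over all genes tested 9.72% passed. The share of these enzymes called was thus near that of all genes. The acetyltransferase Kat6b, the deacetylase Hdac6, the sirtuins Sirt2 and Sirt3, and the methyltransferases Ezh1 and Nsd1 fell, and the demethylase Kdm1a rose. Over all genes 6.62% were called lower and 3.1% higher. The median change of the 73 enzymes was -0.04, beside -0.01 over all genes and -0.20 over genes above the median level. Of the 73, 23 had an unadjusted p under 0.05 (10 higher and 13 lower, 31.5%), and over all genes 23.1% had. Among genes above the median level, where 65 of the 73 lie, 17.7% were called and 40.1% had an unadjusted p under 0.05, and of those 65 enzymes 10.8% and 35.4%. The 6 arrays of 4 h did not overlap the 6 of 0 h for 8 enzymes (11%), 2 higher and 6 lower. They did not for 7.67% of all genes and for 14% of genes above the median level.

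**Figure D1:**
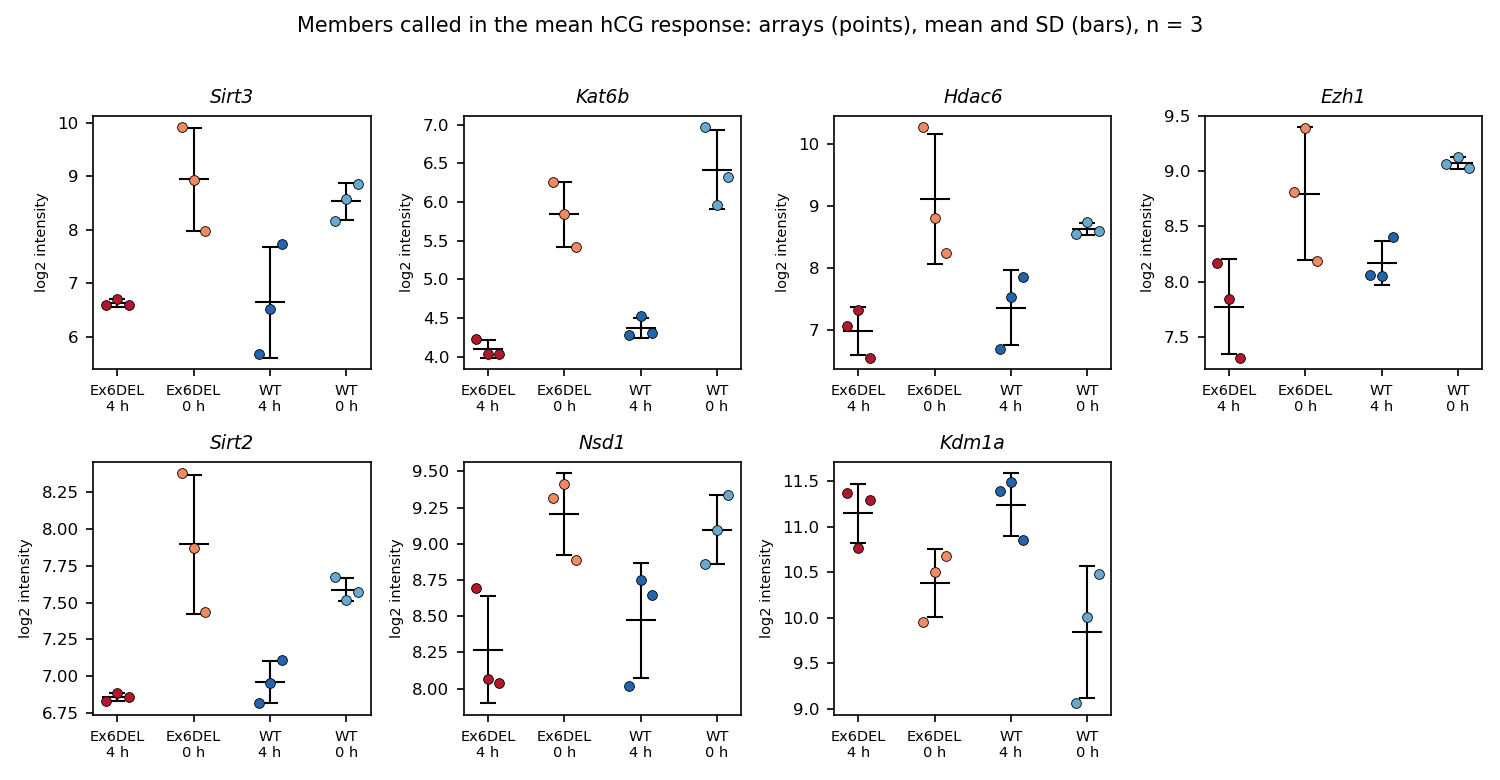
Log2 intensity (vertical axis, own scale in each panel) of the 7 enzymes called in the mean hCG response, in Ex6DEL 4 h, Ex6DEL 0 h, WT 4 h and WT 0 h; points are arrays, and bars are the mean and SD of 3 arrays. In 6 panels the 4 h arrays lie below the 0 h arrays of the same genotype, and for Kdm1a they lie above.

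The sequences upstream of called genes show what their promoters look like. Windows of 250 bases before to 50 after the transcription start were taken from RefSeq (GRCm38.p6), where 58 of the 73 enzymes and 6 of the 7 called ones had an entry (Nsd1 was not matched). Capitals mark letters of a motif found on either strand. The motifs marked are the GC box (GGGCGG), the box spelled CCAAT, and TGACG, a half-site of the cAMP response element that CREB factors bind. Printed are the called genes with the 3 largest falls and the gene that rose.
Kat6b promoter, chr14:21499520-21499819, plus strand, GC content 78.3%: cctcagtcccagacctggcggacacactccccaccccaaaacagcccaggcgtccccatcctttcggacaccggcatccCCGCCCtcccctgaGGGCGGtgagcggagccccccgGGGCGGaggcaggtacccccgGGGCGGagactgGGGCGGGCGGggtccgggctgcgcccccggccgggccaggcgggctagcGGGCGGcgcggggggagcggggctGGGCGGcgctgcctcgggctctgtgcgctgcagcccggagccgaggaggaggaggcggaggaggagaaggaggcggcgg
Sirt3 promoter, chr7:140882260-140882559, minus strand, GC content 61%: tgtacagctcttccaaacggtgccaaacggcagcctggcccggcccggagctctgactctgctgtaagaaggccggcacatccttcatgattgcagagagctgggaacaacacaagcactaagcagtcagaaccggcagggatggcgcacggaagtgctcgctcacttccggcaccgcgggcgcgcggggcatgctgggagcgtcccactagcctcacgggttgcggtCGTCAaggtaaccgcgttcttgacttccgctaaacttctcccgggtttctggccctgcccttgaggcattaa
Hdac6 promoter, chrX:7947840-7948139, minus strand, GC content 62%: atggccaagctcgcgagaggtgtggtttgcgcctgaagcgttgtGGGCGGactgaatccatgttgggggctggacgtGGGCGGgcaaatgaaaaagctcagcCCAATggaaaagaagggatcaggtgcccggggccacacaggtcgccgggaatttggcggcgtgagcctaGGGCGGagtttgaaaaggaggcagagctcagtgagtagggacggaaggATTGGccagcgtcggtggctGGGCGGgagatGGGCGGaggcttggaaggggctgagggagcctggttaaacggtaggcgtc
Kdm1a promoter, chr4:136602674-136602973, minus strand, GC content 61.3%: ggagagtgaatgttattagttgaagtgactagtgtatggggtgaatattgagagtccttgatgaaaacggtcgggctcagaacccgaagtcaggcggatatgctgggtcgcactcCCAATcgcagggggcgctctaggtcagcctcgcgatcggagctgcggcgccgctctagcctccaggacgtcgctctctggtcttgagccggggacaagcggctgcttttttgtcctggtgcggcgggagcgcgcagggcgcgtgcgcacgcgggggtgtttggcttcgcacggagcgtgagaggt
The Kat6b window held 8 GC boxes, some of them overlapping, and Hdac6 held 5 GC boxes and 2 CCAAT boxes. Sirt3 held 1 half-site, and Kdm1a held 1 CCAAT box and neither of the other motifs. RefSeq lists 2 starts for Kat6b and for Sirt3, so another window exists for each.

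Promoters of these enzymes had a high GC content. Their median GC content was 61.2%, against 52.7% over 27025 genes. A GC box stood in 60.3% of the 58 windows and in 35.9% of all windows of the same length. CCAAT stood in 41.4% and 37.9%, and the half-site TGACG in 27.6% and 21.0%. The full element TGACGTCA, which contains the half-site, was found in 1.72% of the enzymes' windows and 1.88% of all, and TGANTCA, the motif of AP-1 factors, in 5.17% and 7.93%. The orphan receptor motif CAAGGTCA was in none of the 58 and in 1.53% of all. Among the 6 called genes with a window, none held TGACGTCA, TGANTCA or CAAGGTCA. A match is a description of the letters and not evidence of a bound site.

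Kat6b fell in both genotypes. It encodes the MORF acetyltransferase, a MYST-family enzyme that acts in a complex with BRPF proteins and acetylates histone H3. Its log2 intensity was 4.23, 4.03 and 4.04 in Ex6DEL 4 h, 6.26, 5.84 and 5.41 in Ex6DEL 0 h, 4.28, 4.52 and 4.30 in WT 4 h, and 6.97, 5.95 and 6.33 in WT 0 h arrays. All 6 arrays after hCG lay below all 6 arrays before it. The mean response was -1.89 (SE 0.19, adjusted p 0.00239, limma), a 3.72-fold lower intensity. It was the only member of its class of 10 acetyltransferases that was called. The other 9 had changes between -0.76 and 0.41, and their neighbour in sequence Kat6a had 0.30. The fall is that of 1 probe set, since the other 2 probe sets of Kat6b were below the array median on all 12 arrays. Averaged with them, the change was -0.66 (adjusted p 0.00232).

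Sirt3 and Sirt2 fell among the sirtuins. Sirt3 is the main deacetylase of mitochondria, and Sirt2 is largely cytoplasmic, deacetylates tubulin and acts on H4K16 in mitosis. Sirt3 measured 6.59, 6.71 and 6.59 in Ex6DEL 4 h, 9.91, 8.92 and 7.98 in Ex6DEL 0 h, 5.68, 6.51 and 7.74 in WT 4 h, and 8.16, 8.57 and 8.85 in WT 0 h arrays. The 4 h and 0 h arrays did not overlap, although WT 4 h replicate 3 at 7.74 came near Ex6DEL 0 h replicate 3 at 7.98. The mean response of Sirt3 was -2.10 (SE 0.41, adjusted p 0.0176, limma), a 4.28-fold lower intensity and the largest fall among the 73 enzymes. Sirt2 changed less but more evenly. It measured 6.83, 6.88 and 6.86 in Ex6DEL 4 h, 8.38, 7.88 and 7.44 in Ex6DEL 0 h, 6.81, 6.95 and 7.11 in WT 4 h, and 7.67, 7.52 and 7.57 in WT 0 h arrays. Again no array of 4 h reached one of 0 h. The mean response of Sirt2 was -0.84 (SE 0.14, adjusted p 0.0105). Each of these genes has a single probe set. Of the 7 sirtuins 6 had a negative mean change and 2 were called. Over all genes 9864 of 18194 were negative and 9.72% were called, and among genes above the median level 5662 of 9097 and 17.7%. With only 7 sirtuins, these counts do not show a fall of the family. Sirt1, a nuclear deacetylase, had -0.22 (adjusted p 0.790), with Ex6DEL 0 h replicate 3 far above its group at 10.01, beside 8.30 and 7.99.

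Hdac6 was the one called member of the classical deacetylases. It is a cytoplasmic class II enzyme that deacetylates tubulin, so its name as a histone deacetylase describes its family more than its main substrate. Hdac6 measured 7.07, 7.31 and 6.55 in Ex6DEL 4 h, 10.27, 8.81 and 8.24 in Ex6DEL 0 h, 6.69, 7.53 and 7.85 in WT 4 h, and 8.54, 8.73 and 8.59 in WT 0 h arrays. The times did not overlap. The mean response was -1.70 (SE 0.35, adjusted p 0.0222, limma). Its value of 10.27 belonged to the array with the highest theca and stroma markers, and that array also had the highest Sirt3 and Sirt2 of all 12. The part of cell content in these values, in that array or in the others, was not tested. Without that array the mean response was -1.41 for Hdac6 (adjusted p 0.0182, limma), -1.85 for Sirt3 (0.0283) and -0.71 for Sirt2 (0.00686).

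The other classical deacetylases gave no call. The 4 class I enzymes are Hdac1 and Hdac2, shared by the Sin3, NuRD and CoREST complexes, Hdac3 of the NCoR and SMRT complexes, and Hdac8, which deacetylates cohesin. They had mean changes between -0.28 and 0.09. Hdac2 had 0.06 (adjusted p 0.948). Hdac5, a class IIa deacetylase that shuttles out of the nucleus on phosphorylation, had 0.92 (SE 0.27, adjusted p 0.0695) and so missed the threshold. Its arrays measured 10.25, 9.86 and 10.70 in Ex6DEL 4 h, 8.77, 10.09 and 9.98 in Ex6DEL 0 h, 10.25, 10.48 and 9.88 in WT 4 h, and 8.63, 9.11 and 9.34 in WT 0 h. The WT times did not overlap and the Ex6DEL times did.

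Among the histone methyltransferases Ezh1 and Nsd1 fell. Ezh1 and Ezh2 are the alternative catalytic subunits of Polycomb repressive complex 2 (PRC2), which methylates H3K27, Ezh2 being typical of dividing cells and Ezh1 of resting ones. Ezh1 measured 8.17, 7.84 and 7.32 in Ex6DEL 4 h, 8.81, 9.39 and 8.18 in Ex6DEL 0 h, 8.06, 8.05 and 8.40 in WT 4 h, and 9.06, 9.13 and 9.03 in WT 0 h arrays. Within each genotype the times did not overlap, but the nearest Ex6DEL arrays, at 8.17 and 8.18, were almost level. The mean response of Ezh1 was -0.96 (SE 0.21, adjusted p 0.0282, limma), and that of Ezh2 was -0.45 (adjusted p 0.186). With the mean of its 4 probe sets Ezh1 had -0.17 (adjusted p 0.199, limma) and was not called. Nsd1, which dimethylates H3K36, measured 8.70, 8.07 and 8.04 in Ex6DEL 4 h, 9.32, 9.41 and 8.89 in Ex6DEL 0 h, 8.02, 8.75 and 8.65 in WT 4 h, and 8.86, 9.10 and 9.34 in WT 0 h arrays. The times lay close but apart, with a mean response of -0.78 (SE 0.18, adjusted p 0.0329). Its relatives differed in sign, with -0.49 for Nsd2 and 0.52 for Nsd3, neither called. A second probe set of Nsd1 above background changed by -0.26.

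No other methyltransferase passed. The 8 H3K4 enzymes had mean changes between -0.55 and 0.9996 with a median of 0.30. Kmt2e, a divergent member of that family, had -0.53 (adjusted p 0.0818), Kmt2b had 0.34 (0.111) and Kmt2d had 0.51 (0.252). In all 6 arrays of 4 h Kmt2e lay below the 6 arrays of 0 h, and Kmt2b lay above them. The nearest arrays of the 2 times were almost level, at 8.795 and 8.798 for Kmt2e and at 8.864 and 8.862 for Kmt2b. The 5 H3K9 enzymes ran from -0.72 to 0.11 with a median of -0.46, and 4 of them were negative. Ehmt2, which dimethylates H3K9, had -0.72 (adjusted p 0.146). Kmt5a, which sets the first methyl group on H4K20, had 0.08 (adjusted p 0.883), and Setd3, an actin histidine methyltransferase despite its family name, had 0.23 (0.444).

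Kdm1a was the one enzyme called higher. It encodes LSD1, the flavin demethylase that removes mono- and dimethylation of H3K4 within the CoREST corepressor complex. Its arrays measured 11.38, 10.77 and 11.30 in Ex6DEL 4 h, 9.96, 10.51 and 10.68 in Ex6DEL 0 h, 11.39, 11.50 and 10.85 in WT 4 h, and 9.06, 10.01 and 10.48 in WT 0 h. The lowest array of 4 h lay just above the highest of 0 h. The mean response was 1.08 (SE 0.26, adjusted p 0.0374, limma), a 2.12-fold higher intensity. A second probe set, not used in the test, rose by 1.25 on the same contrast. With the replicate number as a block Kdm1a was not called (1.08, adjusted p 0.0571), nor was Nsd1 (0.0622), and Kdm6b was called higher (0.996, adjusted p 0.0213). The paralogue Kdm1b had 0.21 (adjusted p 0.541).

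Several JmjC demethylases had positive changes that missed the threshold. Kdm7a, which removes H3K9 and H3K27 dimethylation, measured 9.98, 9.38 and 10.04 in Ex6DEL 4 h, 6.53, 8.76 and 9.44 in Ex6DEL 0 h, 9.75, 10.12 and 9.13 in WT 4 h, and 6.73, 8.09 and 8.77 in WT 0 h arrays. The Ex6DEL 0 h arrays alone ran between 6.53 and 9.44, and the mean response was 1.68 (SE 0.54, adjusted p 0.0914). Its other probe sets above background had 1.38 and 1.86. Kdm6b, the H3K27 demethylase JMJD3 known for rapid induction in stimulated macrophages, measured 10.34, 11.65 and 11.62 in Ex6DEL 4 h, 9.41, 11.60 and 11.90 in Ex6DEL 0 h, 10.37, 12.29 and 11.85 in WT 4 h, and 8.60, 10.22 and 10.41 in WT 0 h arrays. Replicate 1 was the lowest of Kdm6b in all 4 groups. The mean response of Kdm6b was 0.996 (SE 0.58, adjusted p 0.376). Kdm5a, an H3K4 demethylase, had 1.04 (adjusted p 0.182), carried by 1 of its probe sets. Kdm3a, an H3K9 demethylase, had 0.79 (adjusted p 0.265), Kdm5b, a relative of Kdm5a, had 0.58 (0.106), and Kdm2a, an H3K36 demethylase, had 0.44 (0.368). No value of Kdm3a, Kdm5b or Kdm2a was near the floor.

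**Figure D2:**
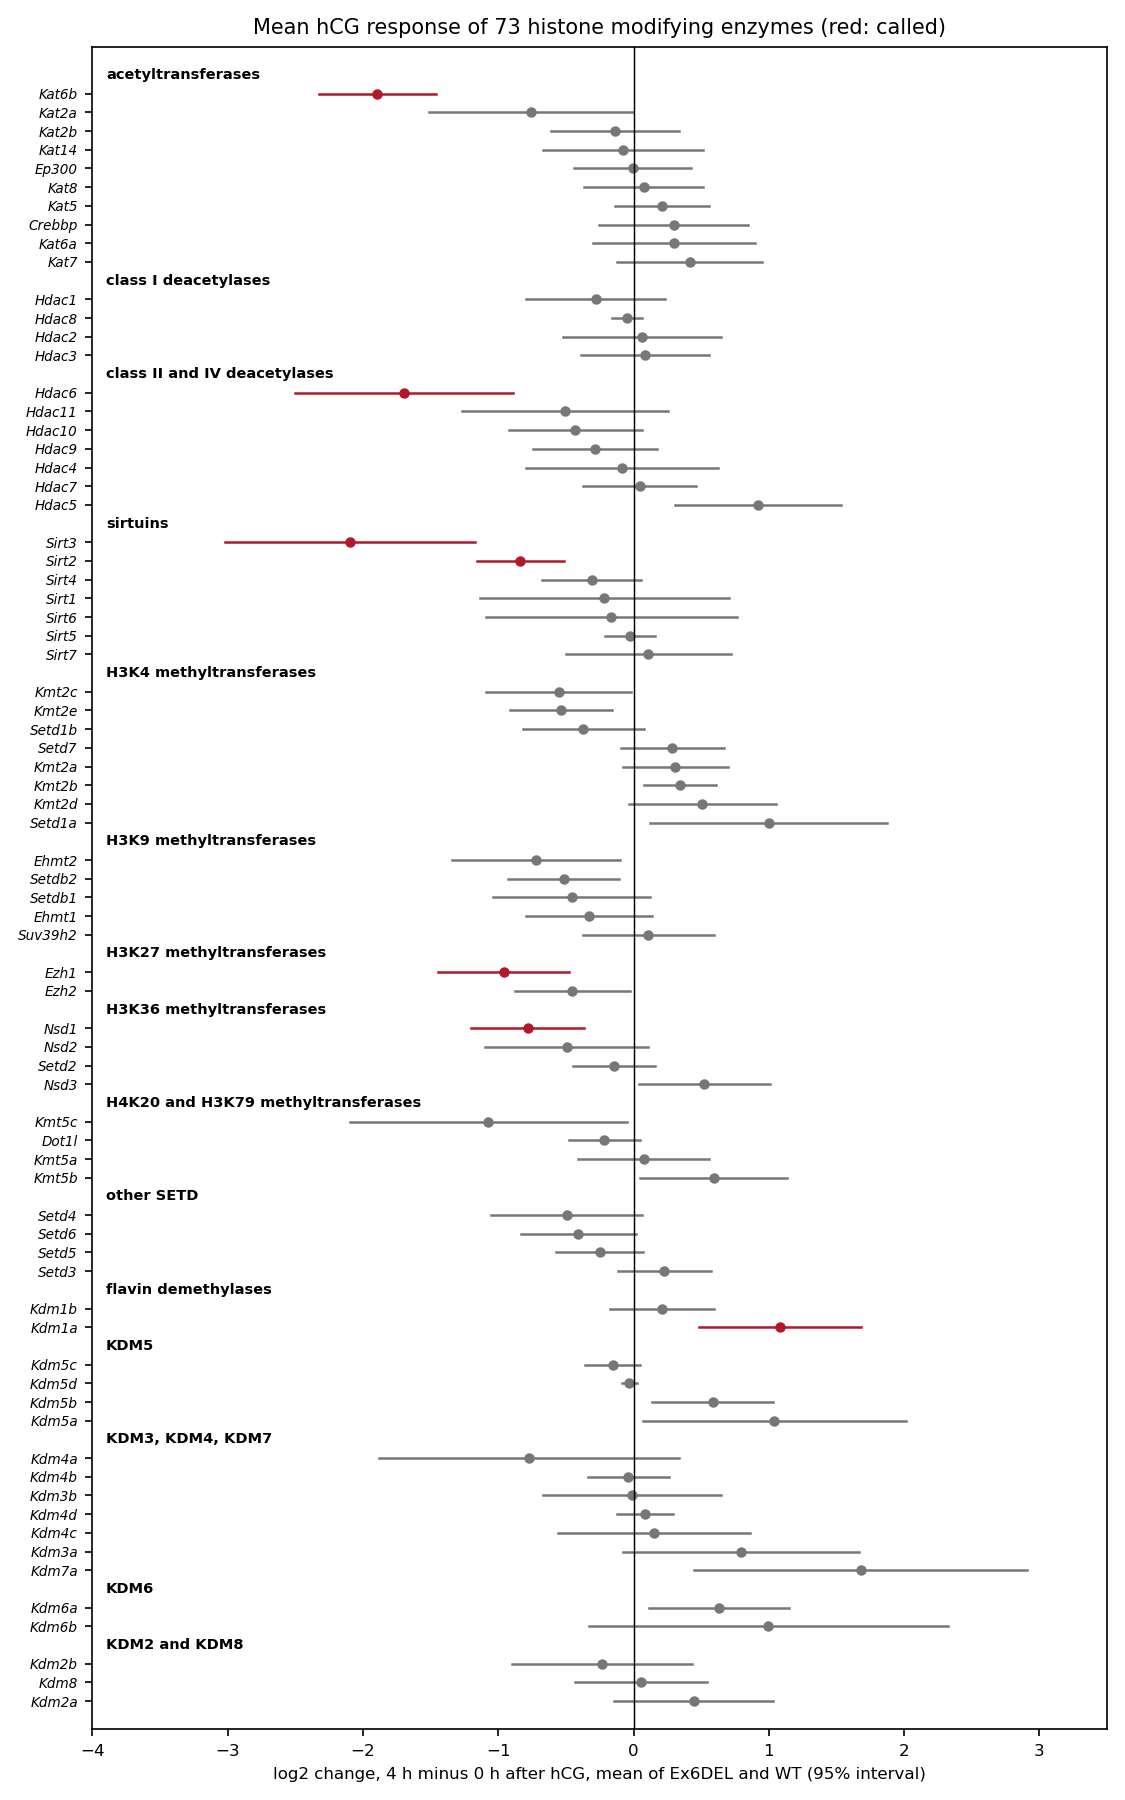
Log2 change (horizontal axis, 4 h minus 0 h, mean of the Ex6DEL and WT responses) of all 73 enzymes, grouped by class and sorted within it; points are estimates, lines are 95% intervals, and red marks the 7 called. Kat6b, Hdac6, Sirt3, Sirt2, Ezh1 and Nsd1 lie left of 0 and Kdm1a lies right of it.

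How far the calls depend on single arrays varied by gene. Kat6b, Sirt2 and Sirt3 stayed called in the mean response in all 12 fits that left out 1 array. Hdac6 stayed called in 7 and was lost at -1.74 to -1.53 (adjusted p 0.0512 to 0.0589, limma) without Ex6DEL 4 h replicate 3, WT 0 h replicate 2 or 3, or WT 4 h replicate 1 or 2. Ezh1 stayed called in 6 and was lost at -0.97 to -0.85 (adjusted p 0.0556 to 0.0697) without Ex6DEL 4 h replicate 3, Ex6DEL 0 h replicate 1, WT 4 h replicate 1 or 2, or WT 0 h replicate 2 or 3. Nsd1 stayed called in 5 and was lost at -0.78 to -0.67 (adjusted p 0.0624 to 0.0814) without Ex6DEL 4 h replicate 2 or 3, Ex6DEL 0 h replicate 1 or 2, WT 4 h replicate 1, or WT 0 h replicate 2 or 3. Kdm1a stayed called in 5 and was lost at 0.98 to 1.12 (adjusted p 0.0712 to 0.0897) without Ex6DEL 4 h replicate 1 or 3, Ex6DEL 0 h replicate 1 or 2, WT 4 h replicate 1 or 2, or WT 0 h replicate 2. In Ex6DEL 0 h replicate 3, the array with a raised mean of ovulatory genes, all 7 called genes had the value of its group nearest to the 4 h side. Without that array, 11 enzymes (15.1%) were called in the mean response, and 12.2% of all genes were. Without it and WT 0 h replicate 1, whose ovulatory gene mean of 5.05 was the highest of its group, 10 enzymes (13.7%) and 12.6% of all genes were called. The number of enzymes was 3 without Ex6DEL 4 h replicate 3, WT 4 h replicate 1 or WT 0 h replicate 2, and 4 without WT 4 h replicate 2 or WT 0 h replicate 3, fits in which 4.92% to 5.25% of all genes were called.

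In Ex6DEL alone, 2 of the 73 enzymes (2.74%) were called 4 h after hCG, and 2.17% of all genes were. Both fell, where 1.6% of all genes were called lower and 0.566% higher. Kat6b had -1.74 (SE 0.27, adjusted p 0.0286, limma) and Sirt2 had -1.04 (SE 0.20, adjusted p 0.0409). Hdac6 at -2.13 (adjusted p 0.0649), Sirt3 at -2.31 (0.0756) and Nsd1 at -0.94 (0.0984) came next. On the positive side Kdm5a had 1.76 (adjusted p 0.161), Kat5, the Tip60 acetyltransferase, had 0.51 (0.242), Kdm1a had 0.77 (0.319) and Kdm7a had 1.56 (0.327). The change of Kdm5a is that of its brightest probe set alone, and its 5 other probe sets had -0.03 to 0.11. At an unadjusted p under 0.05 there were 16 enzymes (21.9%), 14 of them lower and 2 higher, beside 18.9% of all genes and 32.7% of genes above the median level. Whether the replicate numbers pair the arrays in this comparison is not known here. With the replicate as a block Kat6b stayed called (-1.74, adjusted p 0.0489, limma) while Sirt2 did not (0.0714). A fit of the Ex6DEL arrays alone gave no call, at adjusted p 0.149 for Kat6b and 0.252 for Sirt2. Leaving out 1 array kept the call of Sirt2 only where that array was Ex6DEL 0 h replicate 3, and otherwise its change was -1.05 to -0.80 (adjusted p 0.0527 to 0.128). Kat6b was lost at -1.80 to -1.53 (adjusted p 0.0507 to 0.103) without any one of the Ex6DEL 4 h arrays, Ex6DEL 0 h replicate 1 or 2, WT 4 h replicate 2 or WT 0 h replicate 2. Without Ex6DEL 0 h replicate 3, 7 enzymes (9.59%) and 6.9% of all genes were called in Ex6DEL.

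In WT alone, 1 of the 73 (1.37%) was called, and 0.929% of all genes were. Kat6b had -2.05 (SE 0.27, adjusted p 0.0194, limma). Kdm1a at 1.40 (adjusted p 0.132), Hdac11 at -1.72 (0.144), Sirt3 at -1.88 (0.183), Kmt2a at 0.77 (0.193), Sirt2 at -0.63 (0.196), Hdac5 at 1.18 (0.207), Kdm5b at 0.86 (0.208), Ezh1 at -0.90 (0.221) and Kmt2b at 0.45 (0.263) came next and did not pass. At an unadjusted p under 0.05 there were 20 enzymes (27.4%), 10 higher and 10 lower, beside 14.4% of all genes and 23.5% of genes above the median level. The call of Kat6b was lost in a fit of the WT arrays alone (adjusted p 0.105), without WT 4 h replicate 1 (-2.00, adjusted p 0.0657) and without WT 4 h replicate 2 (-2.12, adjusted p 0.0585).

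The arrays of WT 4 h and WT 0 h did not overlap for 21 enzymes (28.8%), 10 of them higher and 11 lower after hCG, for 18.9% of all genes and for 31.5% of genes above the median level, where 65 of the 73 lie. The arrays of Ex6DEL 4 h and Ex6DEL 0 h did not overlap for 15 (20.5%), 2 higher (Kdm1a and Kmt2b) and 13 lower, for 19.7% of all genes and for 34.3% of genes above the median level. Across the 73 enzymes the Ex6DEL and WT responses correlated at r = 0.68 and had the same sign in 55. That is a description over genes that share arrays and normalization, not over replicates, and over genes above the median level r was 0.85.

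**Figure D3:**
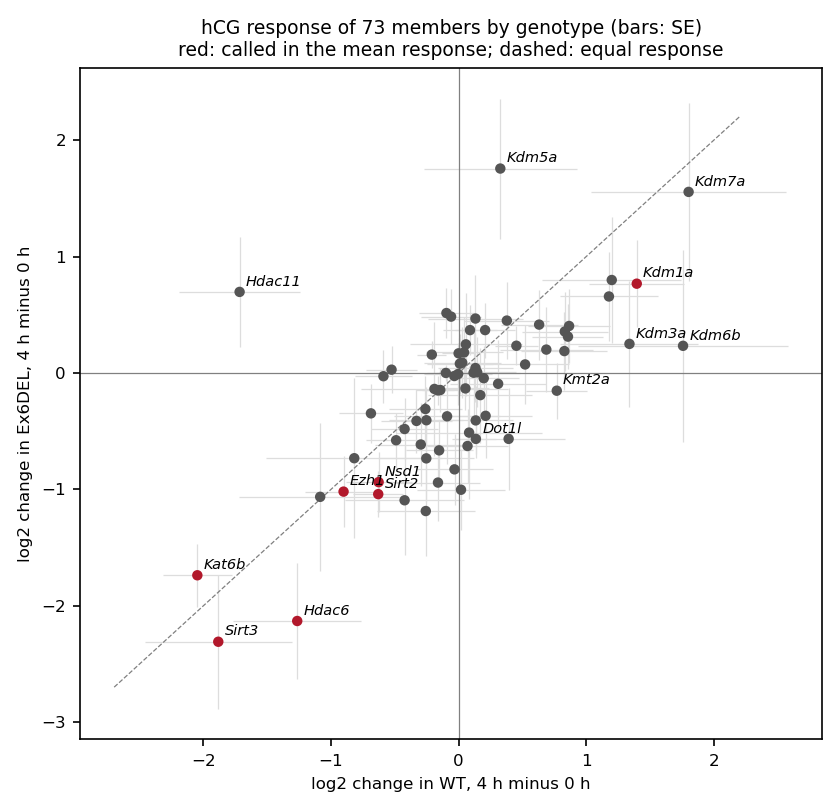
Log2 change 4 h minus 0 h of each of the 73 enzymes in Ex6DEL (vertical axis) and WT (horizontal axis); bars are standard errors, the dashed line marks equal responses, and red marks the 7 called in the mean response. Kat6b, Sirt3 and Hdac6 lie low on both axes, and Hdac11 lies off the line with -1.72 in WT and 0.70 in Ex6DEL.

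Whether loss of exon 6 of Snf2l altered these enzymes was asked at each time. Before hCG, Ex6DEL against WT, none of the 73 was called by limma, and 0.033% of all genes were. At an unadjusted p under 0.05 there were 7 (9.59%), beside 5.36% of all genes. Among genes above the median level 6.83% had such a p, and of the enzymes above that level 7.69%. The median difference of the 73 was 0.25, with 48 positive, beside 0.01 over all genes and 0.21 over genes above the median level. It was 0.04 after quantile normalization and 0.01 without WT 0 h replicate 1, against 0.27 when the arrays were only centred on one median, so its size depended on the scaling and on that array. The arrays did not overlap for 11 enzymes (15.1%), 7 higher and 4 lower in Ex6DEL. They did not for 6.41% of all genes and for 9.41% of genes above the median level, where 65 of the 73 lie.

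Dot1l, the H3K79 methyltransferase, had the smallest p. It measured 9.30, 9.28 and 9.31 in Ex6DEL 0 h and 8.67, 8.62 and 8.55 in WT 0 h arrays. The groups were narrow and apart, with a difference of 0.68 (SE 0.16, unadjusted p 0.00239, adjusted p 0.660, limma). A second probe set of Dot1l differed by 1.59 in the same direction. Hdac11, the sole class IV deacetylase, measured 6.40, 6.40 and 7.43 in Ex6DEL 0 h and 9.02, 8.75 and 8.20 in WT 0 h arrays. All 3 Ex6DEL arrays were lower, with a difference of -1.91 (SE 0.47, adjusted p 0.713). Ex6DEL 0 h replicates 1 and 2 had exactly the same value, 6.39881. The second probe set of Hdac11, below the array median on 7 arrays, differed by -1.34.

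Kmt2a, the MLL1 H3K4 methyltransferase, measured 8.71, 9.22 and 8.58 in Ex6DEL 0 h and 7.54, 8.23 and 8.08 in WT 0 h arrays. The difference was 0.89 (SE 0.24, adjusted p 0.874, limma), and a second probe set of Kmt2a differed by -0.02. Kat5 measured 3.98, 4.30 and 4.08 in Ex6DEL 0 h and 4.61, 4.84 and 4.72 in WT 0 h arrays, with a difference of -0.60 (adjusted p 0.874) and of -1.06 in its second probe set. Setdb2, a SET-domain protein grouped with the H3K9 methyltransferases, differed by -0.59 (adjusted p 0.874). Hdac10, a polyamine deacetylase, differed by 0.78 (adjusted p 0.874), but it lay near the floor in all but Ex6DEL 0 h replicates 1 and 2. None of these differences passes the correction for all genes.

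**Figure D4:**
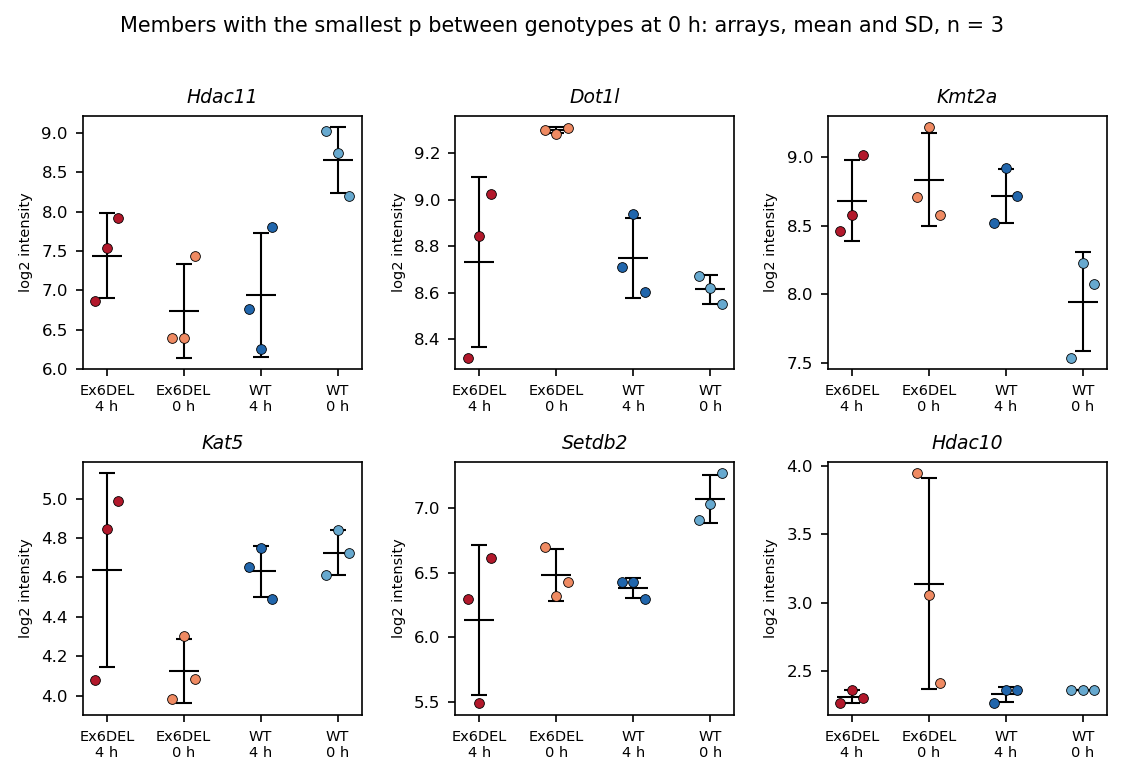
Log2 intensity (vertical axis, own scale in each panel) of the 3 enzymes with the smallest p in each direction between Ex6DEL and WT at 0 h, in Ex6DEL 4 h, Ex6DEL 0 h, WT 4 h and WT 0 h; points are arrays, and bars are the mean and SD of 3 arrays. At 0 h the Ex6DEL arrays lie below WT for Hdac11, Kat5 and Setdb2 and above WT for Dot1l, Kmt2a and Hdac10, and at 4 h the genotypes overlap in these panels.

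After hCG fewer enzymes differed between the genotypes at an unadjusted p under 0.05 than before it. The groups before hCG hold both arrays that stood apart, and their part in this was not tested. Between Ex6DEL 4 h and WT 4 h none of the 73 was called by limma, nor was any gene of the table (0%). At an unadjusted p under 0.05 there was 1 enzyme, Setd6, a methyltransferase of the NF-kB subunit RelA, and 1.62% of all genes. Setd6 measured 7.68, 8.49 and 8.08 in Ex6DEL 4 h and 9.02, 8.71 and 8.40 in WT 4 h arrays, with a difference of -0.63 (adjusted p 1). Kat6b was the one enzyme whose arrays did not overlap, with all 3 Ex6DEL 4 h arrays lower, and 2.98% of all genes did not overlap. The median difference was -0.01. Ezh1 (-0.40), Setd4 (-0.38), Sirt5 (0.23), Kdm4d (0.20) and Hdac8 (0.10) were next by p, and Kdm4d and Hdac8 lay near background.

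The difference between the hCG responses of Ex6DEL and WT, the interaction, was called for none of the 73 by limma and for 0.011% of all genes. At an unadjusted p under 0.05 there were 4 (5.48%), beside 3.2% of all genes and 4.84% of genes above the median level. Hdac11 had the largest, 2.41 (SE 0.67, unadjusted p 0.00608, adjusted p 0.871). Its arrays measured 6.86, 7.54 and 7.93 in Ex6DEL 4 h and 6.40, 6.40 and 7.43 in Ex6DEL 0 h, and 6.76, 6.26 and 7.80 in WT 4 h and 9.02, 8.75 and 8.20 in WT 0 h. The WT 0 h arrays were the high ones, and the other 3 groups overlapped. A second probe set gave 1.27. Kmt2a had -0.92, Dot1l -0.70, Setd4 -1.02, Kat5 0.61 and Sirt5 0.37, all at adjusted p 0.871. A p that misses the threshold does not show that the responses are alike, and the 95% interval for Hdac11 ran between 0.89 and 3.94.

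These enzymes work inside complexes, and 85 of 90 listed partner genes were measured. In the mean hCG response 8 of the 85 (9.41%) were called by limma, 3 higher and 5 lower, beside 9.72% of all genes, and their median change was -0.04. The clearest was Jarid2, the subunit that recruits PRC2 to its targets and lacks demethylase activity despite its JmjC fold. Jarid2 measured 11.74, 11.41 and 11.66 in Ex6DEL 4 h, 10.01, 10.23 and 9.94 in Ex6DEL 0 h, 11.75, 11.72 and 11.62 in WT 4 h, and 9.69, 9.63 and 9.61 in WT 0 h arrays. The times were far apart in both genotypes. The mean response was 1.80 (SE 0.07, adjusted p 1.8e-05), and Jarid2 was called in WT at 2.06 (adjusted p 8.8e-05) and in Ex6DEL at 1.54 (0.000654, but 0.0753 in a fit of the Ex6DEL arrays alone). Aebp2, a second PRC2 accessory subunit, rose by 1.41 (adjusted p 0.0183). Its times overlapped across genotypes, with WT 4 h replicate 3 at 10.39 and Ex6DEL 0 h replicate 3 at 10.50. Thus 2 of 10 PRC2 partners were called higher. The catalytic subunit Ezh1 was called lower on its brightest probe set, but not on the mean of its probe sets.

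Tbl1x, a subunit of the NCoR and SMRT corepressor complexes that hold Hdac3, rose by 1.61 (adjusted p 0.0028, limma). It measured 9.35, 9.33 and 9.31 in Ex6DEL 4 h, 7.87, 7.88 and 8.33 in Ex6DEL 0 h, 9.96, 9.50 and 9.22 in WT 4 h, and 8.12, 7.41 and 7.40 in WT 0 h arrays. Mta3, a NuRD subunit, changed by -1.17 (adjusted p 0.0224), and these were the calls among 16 measured genes of deacetylase complexes. Dpy30, a core subunit of the COMPASS H3K4 methyltransferases, fell by 0.95 on the log2 scale (adjusted p 0.00758), the one call among 10 COMPASS partners. Among 25 partners of acetyltransferase complexes Tada2a, an adaptor of the Gcn5 complexes, had -1.31 (adjusted p 0.0384). Among 24 further chromatin enzymes the arginine methyltransferase Prmt7 had -1.19 (adjusted p 0.0081) and the coactivator Ncoa1 had -0.84 (adjusted p 0.0456). Jarid2, Aebp2, Tbl1x, Dpy30 and Prmt7 stayed called in the mean response whichever array was left out. With the mean of all probe sets Aebp2 was not called (0.99, adjusted p 0.0507), and the changes of Tbl1x and Prmt7 shrank to 0.82 and -0.32, still called. With the replicate number as a block Tada2a (adjusted p 0.0675) and Ncoa1 (0.0691) were not called. Ncoa1 stayed called only without Ex6DEL 0 h replicate 3 and otherwise lay between -0.91 and -0.70 (adjusted p 0.0622 to 0.103). It had the same value, 7.95, in every Ex6DEL 4 h array and in WT 4 h replicate 3. Tada2a was lost at -1.30 to -1.15 (adjusted p 0.0713 to 0.0929) without Ex6DEL 4 h replicate 2 or 3, Ex6DEL 0 h replicate 1 or 2, WT 4 h replicate 1 or 2, or WT 0 h replicate 2 or 3. Mta3 was lost at -1.18 to -1.08 (adjusted p 0.0502 to 0.0595) without Ex6DEL 4 h replicate 1 or 3, Ex6DEL 0 h replicate 2, WT 4 h replicate 1 or 2, or WT 0 h replicate 2 or 3. No partner was called between the genotypes or in the interaction.

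**Figure D5:**
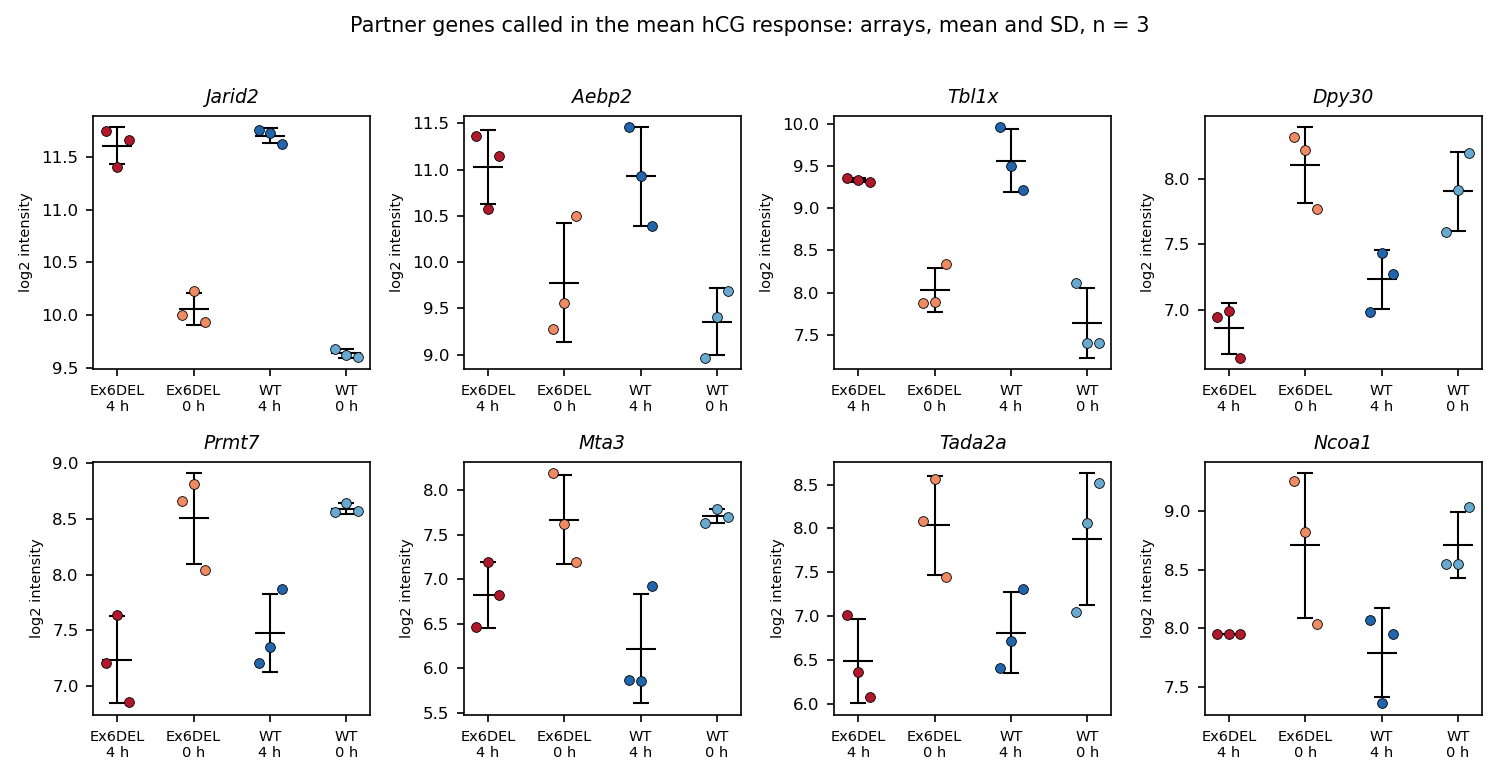
Log2 intensity (vertical axis, own scale in each panel) of the 8 partner genes called in the mean hCG response, in Ex6DEL 4 h, Ex6DEL 0 h, WT 4 h and WT 0 h; points are arrays, and bars are the mean and SD of 3 arrays. Jarid2, Aebp2 and Tbl1x are higher at 4 h in both genotypes, and the group means of the other 5 are lower at 4 h. Among those 5, the times overlap within WT for Tada2a and tie at 7.20 within Ex6DEL for Mta3. For Ncoa1 they overlap only across genotypes.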

How the data were processed

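Per the submitters' processing notes, the authors made log2 intensities per probe set with GCRMA (version not given in the sources used here), which corrects background, normalizes between arrays and summarises probes. The deposited table held 45101 probe sets, 36.4% to 40.5% of them within 0.1 of the floor on each array. Probe sets with exactly 1 symbol numbered 34958, which gave 18194 genes, and 932 with several symbols were left out, 1 of them of this family. Suv39h1, Setd9 and other genes without such a probe set were not analysed here.

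limma 3.58.1 in R 4.3.3 (lmFit, eBayes without trend or robust) fitted 4 groups on all 12 arrays with 8 residual degrees of freedom. Tests were two-sided, and a gene was called at a Benjamini-Hochberg adjusted p (over all genes) under 0.05. The fit was tested on simulated data. Arrays, 3 a group, limit the precision.

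Genes are named if called, if among the smallest p in each direction (5 for hCG responses, 3 for genotype contrasts), or if highest in their class; partners if called. Kat6a, Nsd2 and Nsd3 were added after their values were seen. The members and lists were chosen with earlier results of these data known. Alternatives were other scaling, floors, probe set averaging, array weights, fewer arrays and a replicate block. Whether replicate numbers pair arrays is not known here. Deviations of same-numbered arrays correlated at r 0.143, 0.405 and 0.242 between Ex6DEL 4 h and 0 h, and at 0.086, 0.236 and 0.0155 between WT 4 h and 0 h. Between the genotypes r was 0.727, 0.372 and -0.0156 at 4 h and 0.180, 0.555 and -0.0449 at 0 h. These ranges overlap and do not settle which comparisons are paired.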

Additional observations from a re-analysis of the deposited data

How the results depend on the processing

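Counting called and uncalled values together, most kept their direction and their side of the threshold. Over settings other than leaving out 1 array, 636 of 695 values of named genes did, 25 lost and 30 gained a call, and 4 turned sign. Leaving out each array, 775 of 888 did, 99 lost and 8 gained a call, and 6 turned sign. Many of these values were not called in the main fit and had no call to lose. The lost calls all came from values called in it, so the pooled counts do not show that calls were stable. All sign turns were of uncalled changes near 0 in the mean hCG response. Hdac2 (0.06) became -0.0541 with array weights, -0.11 without both Ex6DEL 0 h replicate 3 and WT 0 h replicate 1, and -0.14 to 0.21 without 1 array. Kmt5a (0.08) became -0.0239 with array weights and -0.0447 to 0.20 without 1 array. Sirt1 (-0.22) became 0.10 without both those arrays and lay between -0.41 and 0.10 without 1 array, the highest without Ex6DEL 0 h replicate 3. The mean of all probe sets moved Ezh1 to -0.17 (adjusted p 0.199) and Nsd1 to -0.20 (0.131). Probe sets at background enter that mean, and so does the second Nsd1 probe set above background, which changed less than the one used. Their separate parts were not tested.

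Counts of called enzymes moved more, with the share of all genes called given in brackets. In the mean response the 7 (9.72%) became 13 (16.5%) with array weights and 1 (2.23%) at an adjusted p under 0.01, and 3 to 11 (4.92% to 12.2%) without 1 array. In Ex6DEL the 2 (2.17%) became 1 (2.67%) with quantile normalization, 4 (4.33%) after a shift to one median, 4 (14.7%) among genes above the median level, 4 (4.81%) with low values raised, 0 (0.055%) with only the groups compared, 7 (7.11%) without both those arrays, 0 (0.044%) at an adjusted p under 0.01, and 0 to 7 (0.143% to 6.9%) without 1 array. In WT the 1 (0.929%) became 2 (5.77%) among genes above the median level, 2 (1.12%) with the mean of probe sets, 14 (12.6%) with array weights, 0 (0.0934%) with only the groups compared, 0 (0.0934%) at an adjusted p under 0.01, and 0 to 2 (0.275% to 1.89%) without 1 array. The replicate block gave 1 called enzyme (0.506%) in Ex6DEL, 2 (0.467%) in WT (Kat6b and Kdm6b, 1.76, adjusted p 0.0447) and 6 (9.44%) in the mean response. The genotype contrasts and the interaction had 0 in limma under all settings. The cause of these moves was not tested.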
